A study of Homo sapiens with 3 samples.

Results

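SBNO1 peaks lying 1 to 10 kb from the start of a protein-coding gene were examined in HuCCT1 cells, an established human cholangiocarcinoma line. A peak is a stretch of the genome where sequenced fragments pulled down with an antibody pile up. The regions were selected on measured values, namely the position of the SBNO1 peak and the absence of any overlapping IgG peak. The nearest edge of each had to lie over 1 kb and at most 10 kb from the nearest transcription start site (TSS) of a protein-coding transcript in GENCODE release 44, and over 1 kb from every TSS of a lncRNA gene. This left 2305 of the 16147 SBNO1 peaks, or 14.3% (95% exact interval 13.7 to 14.8), called members below. Among the 14763 SBNO1 peaks free of IgG overlap, 4555 lay within 1 kb of a TSS and 7729 lay over 10 kb away. A further 174 peaks in the same band were left out for a lncRNA TSS and 120 for an IgG peak. The lncRNA condition was not applied to the peaks within 1 kb and over 10 kb with which members are compared below, except in the densities per Mb.

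The 3 libraries were made by chromatin immunoprecipitation from HuCCT1 cells, for which no treatment is given, with an antibody to SBNO1, an antibody to TAF4 or a control IgG. Each library was sequenced once, from immunoprecipitates pooled over replicate experiments, so no spread between replicates could be measured and no p-value is given. The deposited lists hold 16147 SBNO1, 12763 TAF4 and 1598 IgG peaks with a score that stops at 1000, and read depth is unknown. All intervals below are 95% intervals over peaks and cover counting error only, and peaks of the same library and gene are not independent replicates.

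SBNO1 is a helicase-like nuclear protein related to the Drosophila protein strawberry notch. TAF4 is a scaffold subunit of TFIID, the general factor that sits on core promoters and recruits RNA polymerase II. Sites a few kilobases from a promoter, upstream or in the first intron, often act as enhancers, where AP-1 (FOS and JUN dimers), TEAD and RUNX proteins bind short sequence motifs, whereas CpG island promoters carry KLF/SP, ETS and NFY motifs.

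The AP-1 heptamer TGACTCA, or TGAGTCA on the other strand, was the motif that stood furthest above neighbouring sequence in the members, so windows that carry it are shown first. Each is the plus strand of 200 bp at the peak centre in GRCh38, with AP-1 heptamers in capitals. The window 2.1 kb upstream of HMGCS1, a cholesterol synthesis enzyme gene, held 4 heptamers, MAPKAPK3 held 3, NSA2 held 2 and LRRC59 held 1, and none of these peaks overlapped a TAF4 peak.
HMGCS1 (chr5:43315497-43315696): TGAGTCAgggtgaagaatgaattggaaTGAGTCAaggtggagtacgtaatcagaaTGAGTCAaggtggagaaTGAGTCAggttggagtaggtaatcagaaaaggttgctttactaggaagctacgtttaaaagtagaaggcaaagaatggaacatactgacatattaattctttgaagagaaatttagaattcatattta
NSA2 (chr5:74762730-74762929): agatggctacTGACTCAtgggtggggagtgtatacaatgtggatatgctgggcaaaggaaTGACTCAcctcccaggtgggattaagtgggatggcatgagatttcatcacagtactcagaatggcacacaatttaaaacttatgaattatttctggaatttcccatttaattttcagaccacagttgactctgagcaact
MAPKAPK3 (chr3:50627449-50627648): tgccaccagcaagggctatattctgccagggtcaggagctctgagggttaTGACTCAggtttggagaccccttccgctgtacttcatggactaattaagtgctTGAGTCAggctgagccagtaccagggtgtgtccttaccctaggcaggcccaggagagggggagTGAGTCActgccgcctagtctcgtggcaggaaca
LRRC59 (chr17:50391553-50391752): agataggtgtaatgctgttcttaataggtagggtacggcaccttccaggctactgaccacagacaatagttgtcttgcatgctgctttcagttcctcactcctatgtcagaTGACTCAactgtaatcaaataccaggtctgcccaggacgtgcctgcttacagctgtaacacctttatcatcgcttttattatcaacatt

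Windows from genes with several members are given next, since these genes recur in the results. Each of these 4 peaks overlapped a TAF4 peak and carried 1 heptamer in the window. All windows shown are picked examples. Over all members, TAF4 overlap was 46.3% with 0 heptamers in the peak and 48.6% with at least 3.
SMAD3 (chr15:67091372-67091571): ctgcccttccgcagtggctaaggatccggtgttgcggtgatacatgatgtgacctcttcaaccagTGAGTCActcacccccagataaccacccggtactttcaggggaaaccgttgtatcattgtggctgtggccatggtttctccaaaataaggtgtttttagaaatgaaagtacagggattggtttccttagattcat
ABLIM1 (chr10:114648479-114648678): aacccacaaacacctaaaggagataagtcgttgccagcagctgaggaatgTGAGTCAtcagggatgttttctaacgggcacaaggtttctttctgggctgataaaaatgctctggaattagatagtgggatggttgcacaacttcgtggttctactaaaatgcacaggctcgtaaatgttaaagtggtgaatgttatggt
CD44 (chr11:35166692-35166891): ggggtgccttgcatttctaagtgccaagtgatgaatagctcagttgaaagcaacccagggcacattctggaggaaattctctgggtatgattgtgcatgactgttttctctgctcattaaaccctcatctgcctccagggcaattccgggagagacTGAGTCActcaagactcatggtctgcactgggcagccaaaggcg
IL6R (chr1:154433291-154433490): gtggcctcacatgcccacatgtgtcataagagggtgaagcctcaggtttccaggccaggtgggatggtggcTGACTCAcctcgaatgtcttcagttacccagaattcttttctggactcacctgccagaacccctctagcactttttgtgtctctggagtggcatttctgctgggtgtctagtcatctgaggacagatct

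The last set shows windows without a heptamer from peaks at the highest score. Those nearest UPP1 and KRT86 overlapped a TAF4 peak, and the one nearest CCL2 did not.
UPP1 (chr7:48083504-48083703): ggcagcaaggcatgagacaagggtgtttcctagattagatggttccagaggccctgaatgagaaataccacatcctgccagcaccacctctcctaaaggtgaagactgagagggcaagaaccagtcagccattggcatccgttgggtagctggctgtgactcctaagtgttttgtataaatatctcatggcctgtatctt
KRT86 (chr12:52280660-52280859): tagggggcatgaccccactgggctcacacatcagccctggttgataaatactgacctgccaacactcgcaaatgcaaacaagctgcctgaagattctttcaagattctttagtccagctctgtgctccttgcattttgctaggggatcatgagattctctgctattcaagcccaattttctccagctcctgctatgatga
CCL2 (chr17:34252715-34252914): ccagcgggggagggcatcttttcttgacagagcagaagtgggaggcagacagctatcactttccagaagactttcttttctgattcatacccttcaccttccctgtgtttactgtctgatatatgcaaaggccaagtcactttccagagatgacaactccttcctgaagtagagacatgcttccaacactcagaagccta

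The first question was where members lie relative to genes. Of the 2305 members, 1179 (51.1%, 49.1 to 53.2) had their centre upstream of the nearest TSS, 988 (42.9%, 40.8 to 44.9) lay in the body of that gene and 138 (5.99%, 5.05 to 7.03) lay past its end. Upstream did not always mean between genes. The centre of 428 upstream members (36.3%) was inside the same gene, before an alternative TSS, and that of 116 (9.84%) was inside another protein-coding gene. By annotation, 1449 centres (62.9%) were intronic, 753 (32.7%) were between protein-coding genes, 71 (3.08%) were in an untranslated exon and 32 (1.39%) were in a coding exon. In gene bodies, 665 of 988 members (67.3%, 64.3 to 70.2) lay before the second exon of a transcript from the nearest TSS. A lncRNA gene covered the centre of 259 members (11.2%), although none lay near a lncRNA TSS by the rule.

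Because upstream and gene-body sequence differ in length, peaks were also counted per Mb of sequence in each position, by peak centre and with the same lncRNA and IgG conditions. Between 1 and 10 kb the density was 6.13 peaks per Mb upstream (5.79 to 6.49, 1217 peaks over 198 Mb) and 5.23 in gene bodies (4.91 to 5.56, 1040 peaks over 199 Mb). The intervals of these densities did not overlap. Within 1 kb, the densities were 80.2 and 27.2 peaks per Mb, and over 10 kb they were 2.95 and 3.29, with gene bodies the denser at long range. Upstream density was 8.41 at 1 to 2 kb, 6.30 at 2 to 3 kb, 6.21 at 3 to 5 kb and 5.40 at 5 to 10 kb. In gene bodies the corresponding densities were 6.88, 6.82, 4.90 and 4.44, the higher of the pair only at 2 to 3 kb, where the intervals overlapped. Every one of these values lay above both densities over 10 kb.

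**Figure D1:**
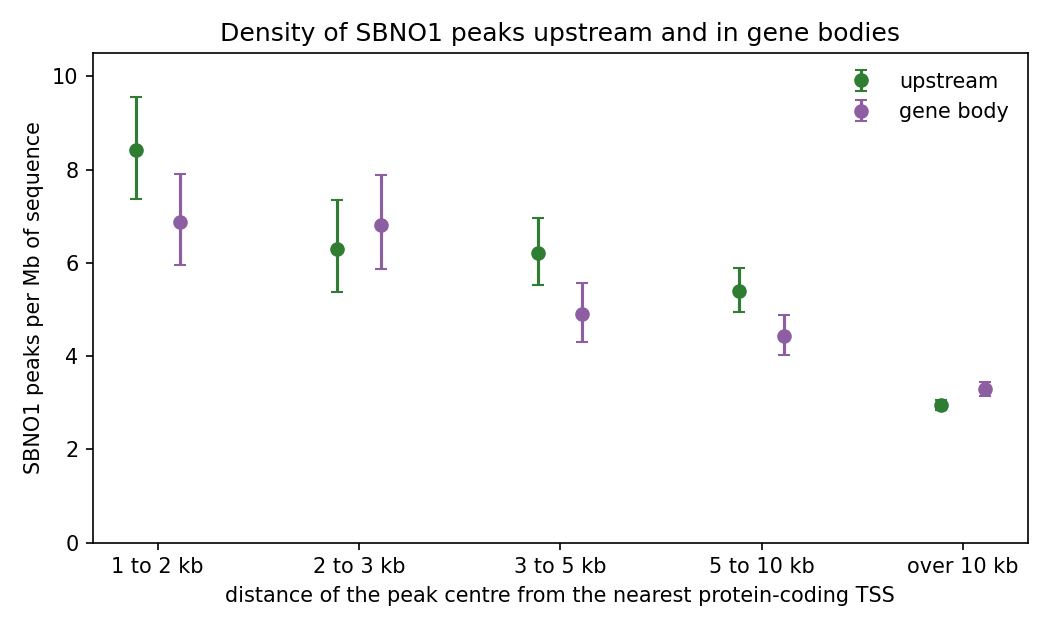
SBNO1 peaks per Mb of sequence (y axis) by distance of the peak centre from the nearest protein-coding TSS (x axis), upstream in green and in gene bodies in purple, with exact Poisson 95% intervals. Density fell from 8.41 upstream and 6.88 in gene bodies at 1 to 2 kb to 2.95 and 3.29 over 10 kb.

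TAF4 overlap was the second question. A TAF4 peak overlapped 1083 members by at least 1 bp, or 47.0% (44.9 to 49.0), against 56.3% of all SBNO1 peaks without IgG. The share was 83.0% (81.9 to 84.1) within 1 kb of a TSS, a difference of members minus promoter peaks of -36.0 points (-38.3 to -33.7). Over 10 kb it was 43.3% (42.2 to 44.4), 3.68 points below the members (1.37 to 6.0). With the lncRNA condition also dropped for the band, 48.0% of 2479 peaks overlapped TAF4. Within the band there was no gradient with distance. Members at 1 to 2 kb overlapped TAF4 in 47.6%, those at 2 to 3 kb in 50.6%, those at 3 to 5 kb in 44.2% and those at 5 to 10 kb in 47.0%, with intervals that overlap.

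Upstream and gene-body members differed little. TAF4 overlapped 569 of 1179 upstream members (48.3%, 45.4 to 51.2) and 444 of 988 gene-body members (44.9%, 41.8 to 48.1), a difference of 3.32 points with an interval from -0.895 to 7.52. The difference was 12.7 points (1.70 to 23.3) at 2 to 3 kb, where 57.0% of upstream and 44.3% of gene-body members overlapped TAF4. In the other 3 distance bins its interval included 0. Members past the gene end overlapped TAF4 in 50.7% (42.1 to 59.3). Upstream members between genes (48.2%), inside their own gene (47.9%) and inside another gene (58 of 116) had like shares, and gene-body members before the second exon (45.0%) differed from the later ones (44.9%) by 0.0708 points (-6.54 to 6.62). The 32 members centred in a coding exon overlapped TAF4 in 22 cases (68.8%, 49.99 to 83.9).

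**Figure D2:**
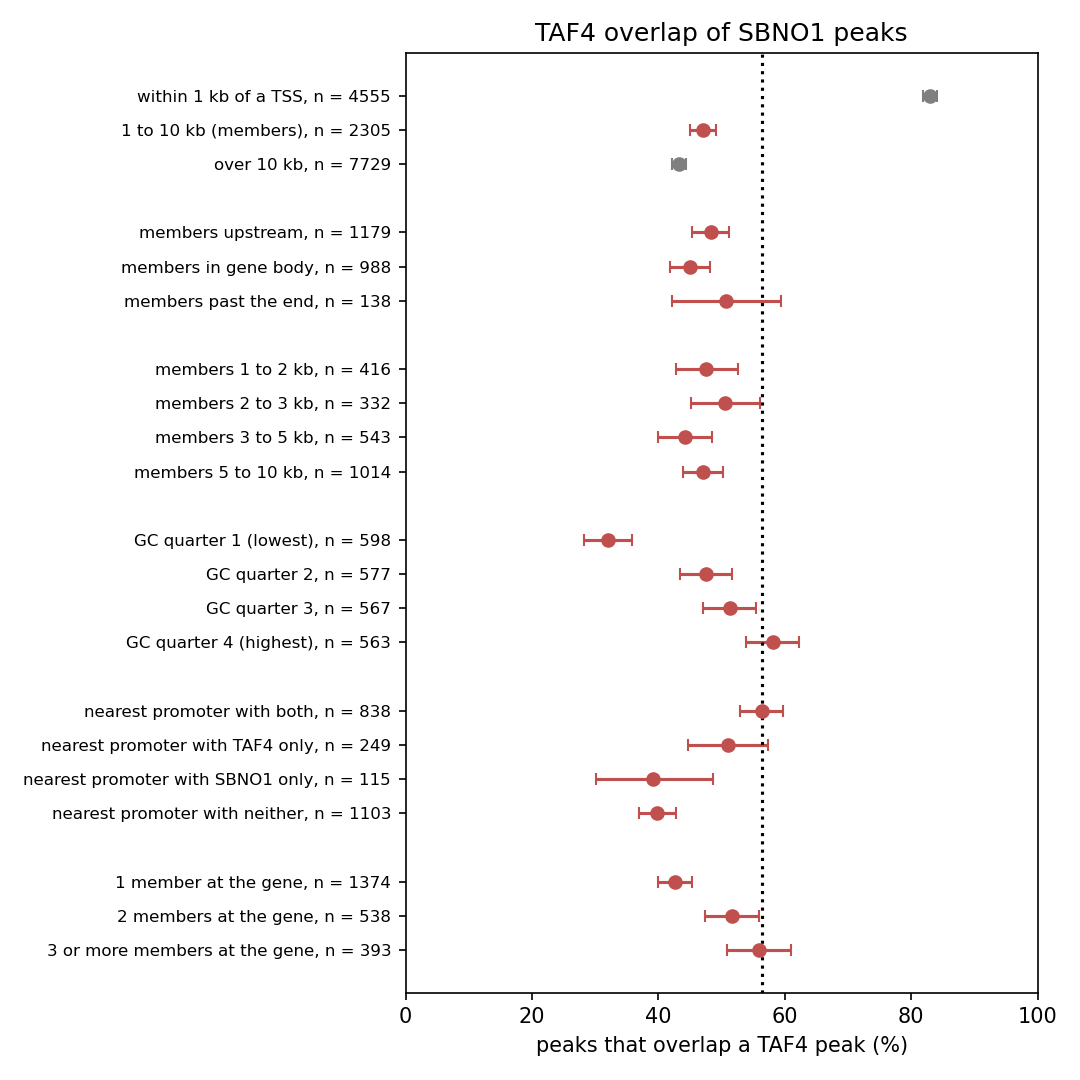
Share of SBNO1 peaks that overlap a TAF4 peak (x axis, percent) with exact 95% intervals, for classes of members (red) and for the SBNO1 peaks nearer to or farther from a TSS (grey), with the number of peaks beside each class. The dotted line marks 56.3% for all SBNO1 peaks without IgG. Position and distance classes lie between 44.2% and 50.7%, and the GC, promoter and gene classes spread more widely.

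The peaks themselves differed with TAF4. Members had a median width of 372 bp (363 to 382), and those with TAF4 were wider, at 425 bp (412 to 439), than those without, at 332 bp (323 to 342). The ratio of the medians was 1.28 (1.20 to 1.36). Members with TAF4 also reached the highest score more often, in 41.3% against 26.4%, a difference of 14.9 points (11.1 to 18.7). In 4 groups of like size from the narrowest to the widest members, TAF4 overlap was 29.7%, 40.2%, 51.5% and 66.6%. The part of width in the overlap was not tested further, and in the deposited lists width and score are tied, since the product of width and score over 1000 was at least 199.96 in SBNO1 peaks below the highest score. Members without a TAF4 overlap rarely missed one by a small gap, with only 46 of 1222 (3.76%) having a TAF4 peak within 500 bp.

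The 1083 members with TAF4 were chosen by overlap, so close centres follow in part from that choice. Their centres were a median of 48 bp apart (43 to 51). In the TAF4-overlapping peaks within 1 kb of a TSS the median was 54 bp (52 to 57). The TAF4 peak covered a median of 83.7% of the SBNO1 peak in these members. The SBNO1 peak was the wider one in 57.9% of members (54.9 to 60.9) but in 41.3% of the TAF4-overlapping peaks within 1 kb of a TSS, a difference of 16.5 points (13.2 to 19.8). In the TAF4 list, 1308 peaks met the same position rule and 1075 of them (82.2%) overlapped an SBNO1 peak. In the IgG list, 131 peaks lay at these positions and 119 (90.8%) overlapped an SBNO1 peak. An IgG peak lay within 1000 bp of 22 members (0.954%).

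Base composition set the members apart from promoters. The 200 bp at the centre had a median GC content of 49.0% (48.5 to 49.5), against 62.5% in SBNO1 peaks within 1 kb of a TSS and 46.5% over 10 kb. GC content over 50% with an observed to expected CpG ratio over 0.6, as in CpG islands, was met by 109 members (4.73%), by 71.7% of the peaks within 1 kb and by 3.82% of those over 10 kb. Members with TAF4 met it in 6.83% and those without in 2.86%, 3.97 points apart (2.23 to 5.81). In 4 groups of like size from the lowest to the highest GC content, TAF4 overlap was 31.9%, 47.5%, 51.3% and 58.1%. Upstream and gene-body members had median GC contents of 48.5% and 49.0%.

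The AP-1 heptamer was present in the central 200 bp of 837 members (36.3%, 34.3 to 38.3), against 29% of all SBNO1 peaks without IgG. Windows of the same length 1 kb to either side held it in 4.19% (3.63 to 4.81), so the centres were 8.67 times as likely to hold it. The share was 7.24% (6.51 to 8.04) in peaks within 1 kb of a TSS and 39.7% (38.6 to 40.8) over 10 kb. The difference of members minus the peaks over 10 kb was -3.42 points (-5.65 to -1.16). With the lncRNA condition also dropped for the band, 35.5% of its peaks held the heptamer. Upstream (36.1%) and gene-body members (37.0%) differed by less than the counting error, and from 1 to 2 kb to 5 to 10 kb the shares were 31.5%, 33.7%, 38.3% and 38.1%. In the whole peak, 869 members had 1 heptamer, 227 had 2 and 37 had 3 or more.

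With TAF4 the heptamer was in 34.0% of members and without TAF4 in 38.4%, a difference of -4.40 points (-8.30 to -0.467). This difference did not hold over the whole peak, where the shares were 49.9% and 48.5% and the difference was 1.33 points (-2.75 to 5.41). It was -9.85 points (-18.4 to -0.965) in the narrowest of the 4 width groups and 2.65, 2.39 and 3.45 points in the wider ones, each with an interval including 0. By position, the difference in the central 200 bp was -7.00 points (-12.4 to -1.51) upstream and -1.01 points (-7.02 to 5.04) in gene bodies, and the difference between these was not tested. Members with 0, 1, 2 and at least 3 heptamers in the peak overlapped TAF4 in 46.3%, 47.5%, 48% and 48.6%.

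**Figure D3:**
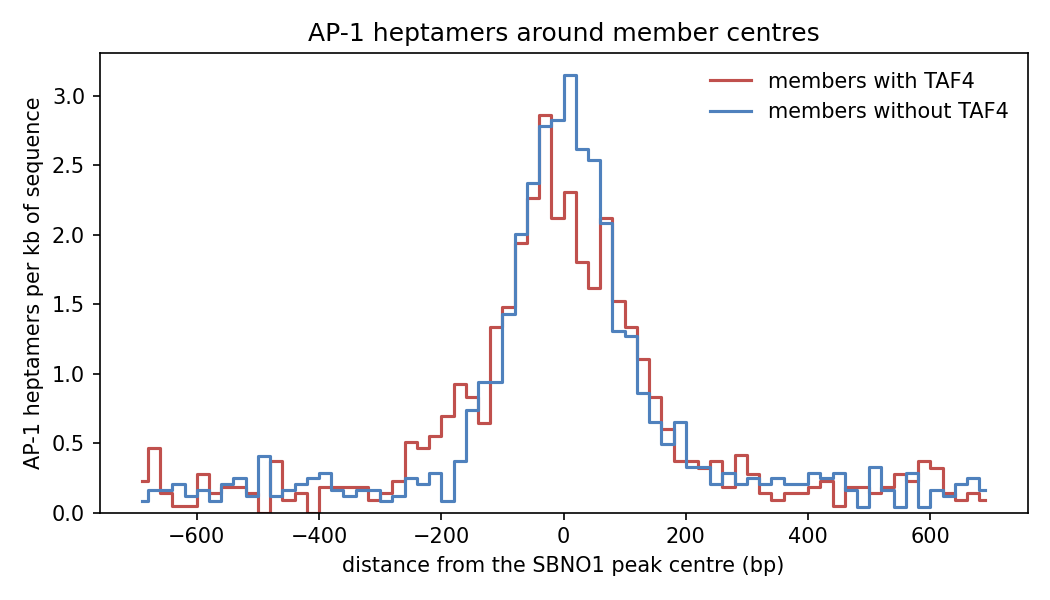
AP-1 heptamers per kb of sequence (y axis) in bins of 20 bp by distance from the SBNO1 peak centre (x axis, bp), for members with TAF4 (red) and without TAF4 (blue). Within 100 bp of the centre the density was 2.0 and 2.31 per kb, against 0.192 and 0.166 at 500 to 700 bp.

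Other enhancer-type motifs were also more frequent in members than near a TSS, and their shares differed from those over 10 kb by less than the counting error. The TEAD motif GGAATG was in 22.3% of members, against 10.7% of flanking windows, 10.3% of peaks within 1 kb, 22.6% of peaks over 10 kb and 18.7% of all SBNO1 peaks. The RUNX motif TGTGGTT was in 11.1%, against 3.28% of flanks, 2.92% within 1 kb, 11.4% over 10 kb and 8.68% of all peaks. The FOX motif TGTTTAC was in 6.64%, against 2.30% of flanks, 2.55% within 1 kb, 5.72% over 10 kb and 4.89% of all peaks. The differences of members minus peaks over 10 kb were -0.347 points (-2.25 to 1.62) for TEAD, -0.266 (-1.69 to 1.25) for RUNX and 0.919 (-0.170 to 2.12) for FOX. TEAD and RUNX matches were more frequent with TAF4 than without, 24.2% against 20.5% (3.65 points, 0.248 to 7.07) and 12.8% against 9.57% (3.26 points, 0.686 to 5.88). FOX matches were not, at 6.56% and 6.71%. Members with an AP-1 heptamer had fewer TEAD matches than the rest, 19.4% against 23.9% (-4.56 points, -7.94 to -1.04), and fewer RUNX matches, 8.60% against 12.5% (-3.93 points, -6.41 to -1.30). Promoter-type motifs were fewer too, with differences of -1.93 points (-3.51 to -0.205) for ETS and -4.19 (-6.77 to -1.45) for KLF/SP. The heptamer was in 46.5% of the narrowest width group of members and 24.2% of the widest. The part of width in these differences was not tested.

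Most promoter-type motifs were more frequent near a TSS than in members, and the TATA box letters were less frequent there. The KLF/SP motif GGGCGG was in 12.1% of members, 53.4% of peaks within 1 kb, 22.4% of all SBNO1 peaks and 6.23% of flanking windows. It was more frequent in members than over 10 kb by 5.03 points (3.63 to 6.53), more frequent with TAF4 (14%) than without (10.4%) by 3.64 points (0.969 to 6.35), and less frequent upstream (10.4%) than in gene bodies (13.4%), a difference of -2.93 points (-5.71 to -0.201). The ETS motif CCGGAA was in 4.34% of members, 25.3% of peaks within 1 kb, 11% of all peaks and 1.95% of flanks, and in 4.49% over 10 kb. The ZNF148/ZNF281 motif GGGGAGGG was in 4.64%, 9.99%, 5.64% and 3.08%, in the same order, and in 3.20% over 10 kb. The NFY motif CCAAT was in 21.6% of members and 22.1% of flanks, against 31.9% within 1 kb, 22.95% over 10 kb and 25.6% of all peaks. The TATA box letters TATAAA were in 8.94% of members, 13.6% of flanks, 4.15% of peaks within 1 kb, 8.63% over 10 kb and 7.28% of all peaks, and the members exceeded the peaks within 1 kb by 4.79 points (3.53 to 6.14).

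Rarer motifs gave few matches. The cAMP response element TGACGTCA, a close relative of the AP-1 heptamer that bZIP factors also bind, was in 12 members (0.521%), against 0.108% of flanks, 2.81% within 1 kb and 1.23% of all peaks. The NF-kB motif GGAATTTCC was in 22 members (0.954%), against 0.130% of flanks and 0.799% of all peaks. The CTCF motif was in 16 members (0.694%), against 0.130% of flanks and 0.522% of all peaks. The E-box CACGTG was in 3.04%, the C/EBP motif TTGCNNCAA in 1.34% and the HNF1 motif GTTAATNAT in 0.607% of members. Flanking windows held these last 3 in 2.58%, 1.56% and 0.542%, and all SBNO1 peaks in 4.68%, 1.37% and 0.610%. After the AP-1 heptamer, the largest ratios of member centres to flanks were 7.33 for NF-kB, 5.33 for CTCF and 4.8 for the cAMP response element, each over few matches.

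**Figure D4:**
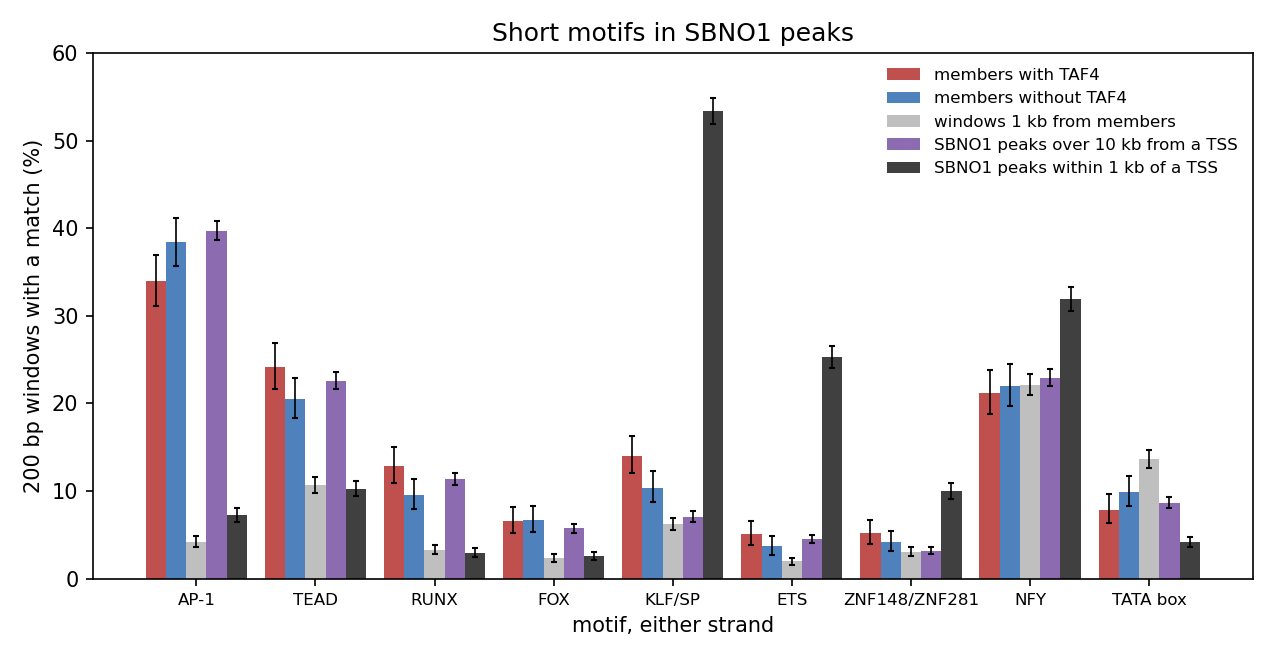
Share of 200 bp windows with at least 1 match on either strand (y axis, percent) for 9 motifs (x axis), with exact 95% intervals, in members with TAF4 (red), members without TAF4 (blue), windows 1 kb to each side of members (light grey), SBNO1 peaks over 10 kb from a TSS (purple) and SBNO1 peaks within 1 kb of a TSS (dark grey). AP-1, TEAD, RUNX and FOX shares in members lie near those of peaks over 10 kb and above those of flanks and of peaks within 1 kb, and KLF/SP, ETS, ZNF148/ZNF281 and NFY were highest in the peaks within 1 kb.

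Promoters of the genes nearest to members were themselves bound more often than others. The 2305 members had 1755 different nearest genes, 8.91% of the 19689 protein-coding genes. An SBNO1 peak lay within 1 kb of a TSS of 651 of these genes (37.1%) and of 23.4% of the genes without a member, a difference of 13.7 points (11.4 to 16.1). TAF4 peaks gave 42.7% and 29.6%, and IgG peaks 2.96% and 1.25%. Genes with a member had a median of 4 annotated TSS and a length of 46.4 kb, against 3 and 27.3 kb over all genes, and the part of TSS number and gene length in these shares was not tested. Over members, 838 (36.4%) lay nearest to a gene with both proteins at a promoter, 249 (10.8%) to one with TAF4 only, 115 (4.99%) to one with SBNO1 only and 1103 (47.9%) to one with neither.

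TAF4 at the member went together with TAF4 at the promoter. Where the promoter carried both proteins, 56.3% of members overlapped TAF4 (52.9 to 59.7), and where it carried neither, 39.8% did (36.9 to 42.8). With TAF4 only the share was 51.0% (44.6 to 57.4), and with SBNO1 only it was 39.1% (30.2 to 48.7). Grouped by promoter TAF4 alone, the shares were 55.1% and 39.7%, 15.4 points apart (11.3 to 19.4). Grouped by promoter SBNO1, they were 54.2% and 41.9%, 12.4 points apart (8.25 to 16.5). Members with TAF4 were also wider and richer in GC, and the part of these in the promoter shares was not tested.

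Some genes had several members. Of the nearest genes, 1374 had 1 member and 112 had at least 3, together 393 members. TAF4 overlap was 42.6% at genes with 1 member, 51.7% at genes with 2 and 56.0% at genes with at least 3, the last 13.4 points above the first (7.80 to 18.9). Each member was counted, also where neighbours at 1 gene overlap the same TAF4 peak, so the interval is too narrow for genes. The part of peak width, GC content and gene length in these shares was not tested. The shares with an AP-1 heptamer in this order were 36.6%, 35.3% and 36.6%. Another SBNO1 peak, of any class, lay within 3 kb of 36.7% of members with TAF4 and 24.9% of those without. Of the 381 genes with at least 2 members, 203 (53.3%) had members of both kinds, 96 had TAF4 at every member and 82 had it at none.

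SMAD3, which carries TGF-beta signals to the nucleus, had the most members. Its 8 members lay between chr15:67076141 and chr15:67175219, each with its edge 4.17 to 8.67 kb from one of 6 TSS, and 5 overlapped TAF4. The 3 at the highest score lay 7.11 kb upstream, 8.53 kb downstream and 8.67 kb downstream of a TSS, and all 3 overlapped TAF4. ABLIM1, an actin-binding LIM protein gene, had 7 members on chromosome 10, of which 3 overlapped TAF4 and 5 held a heptamer in the window. GPRC5A, an orphan G protein-coupled receptor gene induced by retinoic acid, had 7 members on chromosome 12, of which 4 overlapped TAF4. PHLDB2, whose product anchors microtubules at the cell cortex, had 6 members, of which 2 overlapped TAF4 and none reached the highest score.

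The next 7 genes had 5 members each. At CDC42EP4, an effector of the small GTPase CDC42, all 5 overlapped TAF4. At BCL9L, a beta-catenin coactivator, at LMNA, which encodes lamins A and C, at CD44, the hyaluronan receptor, and at PMEPA1, a TGF-beta target that restrains SMAD signalling, 4 of 5 did. At IL6R, the receptor chain for interleukin-6, 3 of 5 did, and at TPCN1, an endolysosomal cation channel gene, 2 of 5 did. Motif content varied too, since none of the BCL9L windows but 3 of the CD44 and 3 of the IL6R windows held an AP-1 heptamer. Outside the window, the BCL9L peaks starting at chr11:118927965 and chr11:118919359 held 1 heptamer each. Promoters of 9 of these 11 genes carried an SBNO1 peak and all 11 a TAF4 peak, against 24.6% and 30.8% of all protein-coding genes. Genes with at least 3 members had a median length of 60.9 kb, against 27.3 kb over all genes. The part of length in these promoter counts was not tested.

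**Figure D5:**
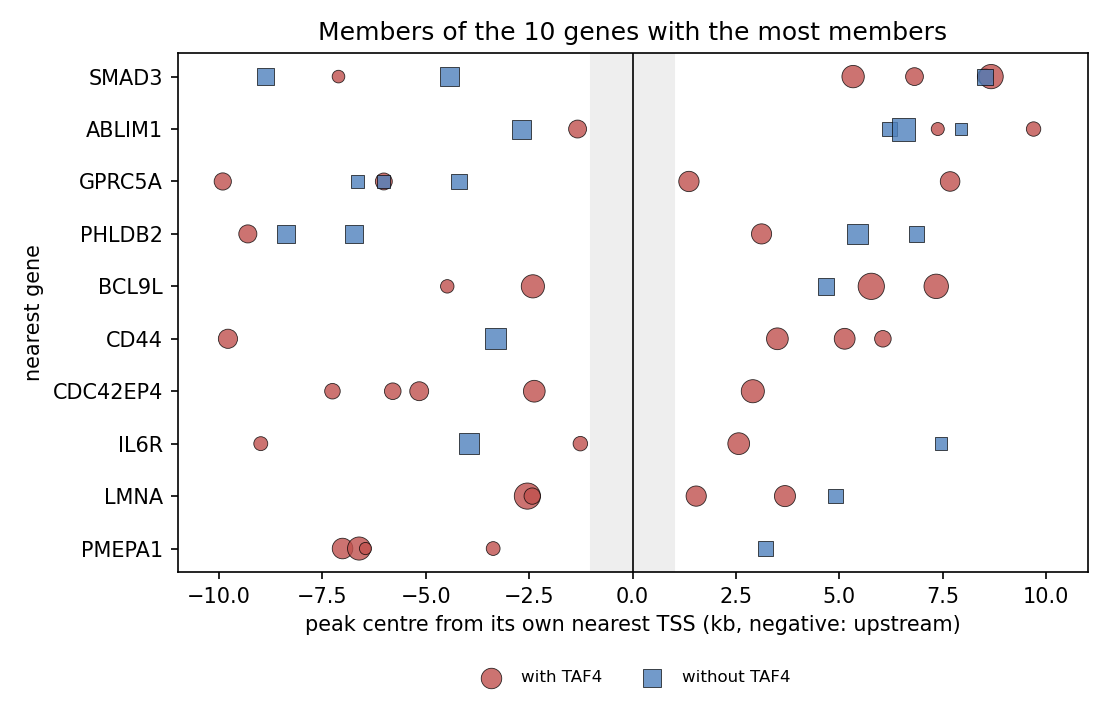
Members of 10 of the 11 genes with at least 5 members (TPCN1, tied at 5, came last by symbol and is not drawn), each placed by the distance of its centre from its own nearest TSS (x axis, kb, upstream negative), with circles for members with TAF4 and squares for those without, and symbol area proportional to peak width. A gene can have several TSS, so members of 1 row need not be neighbours, and the grey band is the 1 kb that the rule leaves out. CDC42EP4 shows circles only, and PHLDB2 has 2 circles among 6 members.

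Of the 769 members at the highest score, 447 (58.1%, 54.5 to 61.6) overlapped TAF4, against 41.4% of the rest. The widest of them are named here, so their widths follow from the choice. Upstream and with TAF4, the 5 widest of these lay 5.02 kb before UPP1, a uridine phosphorylase gene, 5.42 kb before a TSS of ERCC1, a nucleotide excision repair gene, 6.59 kb before KRT31, a hair keratin gene, 7.67 kb before TNS4, a focal adhesion tensin gene, and 9.2 kb before PTHLH, which encodes parathyroid hormone-related protein. They were 956, 936, 830, 799 and 787 bp wide. In gene bodies with TAF4 they lay in KRT86, BCL9L, MYEOV, IQCE and MTHFD1L and were 826 to 967 bp wide. Without TAF4 the widest peaks at the highest score were narrower. Upstream they lay before PDXK, TOGARAM2, CCL2, WWC1 and NSA2, at 429 to 600 bp, and in gene bodies in LRRC59, LIMS1, CELSR1, PAQR9 and ZC3H12A, at 403 to 447 bp. The one nearest CCL2, a monocyte chemoattractant gene, lay 2.46 kb upstream at chr17:34252572-34253058, and the CCL2 promoter carried neither an SBNO1 nor a TAF4 peak.

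Gene lists for this tumour type were read against the 8.91% of all protein-coding genes that had a member. TAF4 counts in the lists stand beside the 47.0% of all members that overlapped TAF4. Biliary epithelial genes had a member in 11 of 24 cases (45.8%, 25.6 to 67.2), among them KRT18 with 2 members, both with TAF4, and KRT19, EPCAM, CLDN4 and SOX9 with 1 each, also with TAF4. KRT7, KRT8, CDH1, AQP1 and CLDN1 had 1 member each without TAF4. Hepatocyte markers had a member in 2 of 20 cases, CYP2E1 and HNF4A, both without TAF4. Immune cell markers had 0 of 20, which allows a share of up to 16.8%. The labelled biliary origin of the cells could not be checked further, since peaks give no expression.

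Lists of signalling genes and transcription factors had members at 10.7% to 42.9% of their genes, lowest in the Notch list and highest in the AP-1 family. Their TAF4 counts rest on few members, against 47.0% of all members, and were not compared between lists. The AP-1 family itself had 6 of 14, with 3 members at FOS, 2 each at ATF3, FOSL2 and MAFK, and 1 each at FOSL1 and JUNB, of which 7 of 11 overlapped TAF4 and 2, both at MAFK, held a heptamer in the window. EGFR ligands and MAPK feedback genes had 11 of 26, including the ligand genes HBEGF, AREG, EREG and TGFA, the receptor genes EGFR and ERBB2, and the phosphatase genes DUSP1, DUSP4 and DUSP5, with TAF4 at 5 of 13 members. The TGF-beta list had 11 of 28 genes and 24 members, 15 with TAF4, with LTBP2 second to SMAD3 at 3 members. The TEAD and YAP list had 8 of 24, including YAP1 and WWTR1, the coactivators of TEAD, with TAF4 at 8 of 11 members. NF-kB factors and feedback genes had 6 of 19, with 4 members at BCL3, and ETS factors 8 of 27. The median gene lengths of the AP-1, EGFR and biliary lists were 9.27, 19.8 and 28.1 kb, and those of the TGF-beta and TEAD lists were 81.7 and 70.7 kb.

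Laminins and integrins, which tie epithelial cells to the basement membrane, had a member at 10 of 30 genes (33.3%, 17.3 to 52.8) and 25 members in all. TAF4 overlapped 13 of these 25, against 47.0% of all members. The list also held CD44, with which the counts were 11 of 31 genes and 30 members. ITGA3, LAMA5 and LAMB3 had 4 members each, and ITGB5 and LAMC1 had 3 each. All 3 members of ITGB5 overlapped TAF4 and none of the 3 LAMC1 members did, and counts this small were not compared. The genes of the list were long, at a median of 85.3 kb, and the part of length in the count was not tested. Interleukins and chemokines had 10 of 50 (20%, 10.03 to 33.7), with 3 members at CCL28 and 2 at IL6. LIF had 1 member, 6.45 kb upstream, without TAF4, while its promoter carried both an SBNO1 and a TAF4 peak. KLF and SP factors had 5 of 27 (18.5%, 6.3 to 38.1) and the Notch list 3 of 28 (10.7%, 2.27 to 28.2), namely HES1, MAML2 and NRARP. The intervals of these last 2 lists, like that of the hepatocyte markers (1.23 to 31.7), included the 8.91% of all genes.

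Among the ribosomal protein and olfactory receptor lists, the share was below that of all genes in the olfactory receptors, and the intervals of both ribosomal lists included 8.91%. Cytosolic ribosomal protein genes had a member in 5 of 85 cases (5.88%, 1.94 to 13.2). An SBNO1 peak lay at a promoter of 71 of the 85, against 24.6% of all protein-coding genes. Mitochondrial ribosomal protein genes had 5 of 78 (6.41%, 2.11 to 14.3), with 50 promoters bound. Olfactory receptor genes, which are expressed mainly in the nose, had 4 of 390 (1.03%, 0.280 to 2.61) and no bound promoter. The median gene lengths of these lists were 5.55, 11.9 and 2.78 kb, against 27.3 kb over all genes, and the part of length in their counts was not tested.

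The peaks on either side of the limits of the rule are given as a description. The members nearest to the inner limit lay 1004 bp from a TSS of KCTD2, 1010 bp from JUP and 1011 bp from RALB, and the peaks just outside it lay 1000 bp from NOCT, 999 bp from MAST4 and 994 bp from ELF2. In the 500 bp inside this limit 51.4% of 216 members overlapped TAF4 and 29.6% held an AP-1 heptamer, against 58.4% and 30.1% of 226 peaks in the 500 bp outside. At the outer limit the last members lay 9967 bp from MAPKAPK3, 9981 bp from STK24 and 9990 bp from FAM25C, and the next peaks lay 10026 bp from LPP, 10028 bp from ETV6 and 10031 bp from ITGB8. There, TAF4 overlapped 40 of 80 members inside and 33 of 76 peaks outside, and the heptamer was in 46.3% and 34.2%.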

How the data were processed

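The authors immunoprecipitated enzymatically digested chromatin from HuCCT1 cells with antibodies to SBNO1, TAF4 or control IgG, pooled the products of at least 3 experiments, and sequenced 1 single-end library each. Per the labels, reads were aligned to GRCh38.p14 with Bowtie2 2.5.4 and Genrich 0.6.1 was used, whereas the methods name normR as the peak caller. Below the highest score, the smallest product of width and score over 1000 was 199.96 (SBNO1), 199.92 (TAF4) and 199.94 (IgG). The smallest gap between peaks was 101 bp in each list. Which caller made the lists was not tested. The deposited value is a score per peak, assigned by the authors' caller and capped at 1000. Per-peak read counts were not analysed here, so the depth is unknown.

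TSS were taken from GENCODE release 44 (78567 positions), peaks lay within the chromosome lengths of the GRCh38 sequence, and overlap meant at least 1 bp. Motifs were exact matches on either strand in 200 bp at the peak centre, with windows 1 kb to each side as background. Shares have Clopper-Pearson intervals, differences Newcombe intervals, medians order-statistic intervals and densities exact Poisson intervals (Python 3.11.15, scipy 1.17.1). Functions for overlap, distance and motifs were tested on simulated data. Members, gene lists and motifs were chosen with earlier results of these data known. Regions were named as the 5 highest-scoring members in each class of position and TAF4 (ties by width), the 10 genes with the most members (ties by symbol, with the tied TPCN1 added), up to 6 genes a list by number of members and then symbol (others named after their values were seen), the 3 members with the most heptamers, and the 3 peaks on each side of each limit. Of these, GPIHBP1 held 7 heptamers in the peak, AHNAK 5 and HMGCS1 4. Sequence windows of further members, densities per Mb and the grouping by number of members were chosen after seeing the data.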

Additional observations from a re-analysis of the deposited data

How the results depend on the processing

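Recomputing 8 results under their alternatives gave 87 values, of which 64 stayed within the main interval (or, for the number of members, within 1.5 times). The number of members was 1291 up to 5 kb, 1138 at or above the median score and 769 at the highest score. TAF4 overlap was 49.9% with 1 canonical TSS per gene, 49.2% with IgG-overlapping peaks kept, 54.7% at or above the median score, 58.1% at the highest score and 41.4% with a reciprocal overlap of 50%. The upstream share was 48.8% with canonical TSS. The share of members whose nearest gene had a promoter bound by SBNO1 was 41.3% as reported, 34.7% with canonical TSS, 45.2% with every transcript, 44.5% up to 5 kb, 49.1% within 3 kb of a TSS, 47.2% with TAF4 and 3.60% with IgG in place of SBNO1. The AP-1 share was 33.1% with canonical TSS, 42.6% at or above the median score, 45.1% at the highest score, 49.2% over the whole peak and 47.2% over 400 bp. The ratio of median widths was 1.46 at or above the median score and 1.51 at the highest score. The AP-1 difference with minus without TAF4 turned to 1.33 points over the whole peak, was -0.987 over 400 bp and -0.855 with reciprocal overlap. Each of these intervals included 0. So did those with canonical TSS (-2.32 points, -6.61 to 1.98), over 2 to 10 kb (-3.99, -8.33 to 0.384) and up to 5 kb (-3.33, -8.49 to 1.88). The lowest value was -7.83 points. The cause of these changes was not tested. The TAF4 difference between upstream and gene-body members ranged from -0.0849 to 6.43 points, and its interval excluded 0 only without the lncRNA condition (4.33 points, 0.239 to 8.40).

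The alternative on masked repeats was not run, since the genome sequence used carries no masking. No paired analysis was possible because only a single library was made per antibody. Without replicates or read depth, absence of a TAF4 peak means only that none was called, intervals cover counting error, and the score, capped and tied to width, ranks peaks only coarsely.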

Other observations

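Members were unevenly spread over chromosomes. Chromosome 5 had 177 members, or 20.3 per 100 protein-coding genes, and chromosome 10 had 19.3 per 100 genes, whereas chromosome 16 had 4.27 and chromosome X 3.87. The share of SBNO1 peaks without IgG that were members went the other way on chromosome 16, at 22.5% of 160 peaks, against 13.6% of 1305 peaks on chromosome 5. TAF4 overlapped 23.8% of the 42 members on chromosome 4 and 56.0% of the 84 members on chromosome 20. The copy number of these chromosomes in the cells was not measured here.

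The member with the most AP-1 heptamers, 7 in a peak of 361 bp, lay 6.61 kb from the TSS of GPIHBP1, past the end of the gene, and did not overlap a TAF4 peak. The member in an intron of AHNAK held 5 heptamers in a peak of 1068 bp, none of them in the central 200 bp, and overlapped a TAF4 peak.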
